A study of Homo sapiens with 12 samples.

Results

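Firefly luciferase (FLuc) was carried in 2 reporters that differ in codon choice, and the 549 FLuc codons of each were matched by number. They were taken from the deposited region list as the segments named FLuc0, on the nonoptimal plasmid map, and FLuc100, on the optimal plasmid map, and no measured value entered the choice. FLuc makes up 549 of the 1127 codons of the reading frame, between 337 codons of an SM segment and 241 codons of GFP. FLuc occupies positions 4404 to 6050 of the nonoptimal map and 3638 to 5284 of the optimal map, on the sense strand of each plasmid, and no genome build applies.

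The study transfected wild-type HEK293T cells, a human embryonic kidney line, with lipofectamine and a reporter labelled SM-nonopt FLuc-GFP or SM-opt FLuc-GFP, beside a Renilla luciferase reporter that all samples received. Cells were harvested after 24 hours and treated briefly with cycloheximide, which holds ribosomes in place on mRNA. Each reporter had 3 Ribo-seq and 3 RNA-seq libraries, and the design text pairs the 2 assays. The labels do not say whether the replicates were separate transfections, so the tests measure only the spread between these samples. As a model this is 1 coding sequence on transiently transfected plasmids, whose copy number per cell was not measured. The cell line was not checked against markers, because host transcripts were not analysed here.

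Most amino acids are encoded by several synonymous codons. Codons read by abundant, well-matched tRNAs are called optimal and are in general decoded faster, while nonoptimal codons slow the ribosome and are associated with faster mRNA decay. Ribo-seq sequences the short mRNA fragments that a ribosome shields from nuclease, so many footprints at a codon can mean many ribosomes or long dwelling. A footprint starts upstream of the codon being decoded, because the shielded fragment reaches further 5′ than the active sites, so the codon numbers below are those where footprints begin. The SM and GFP segments bear the same names in both reporters, and therefore served as the comparison for the recoded codons. The nucleotide letters of the codons were not used here, and a codon is named by its number alone.

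Footprints were sense-strand alignments of 27 to 30 nt, the length range isolated on a gel during library preparation, and were assigned to a codon by their 5′ end. The nonoptimal libraries held 371, 583 and 112 of them on FLuc, and the optimal libraries 335, 350 and 248. That is 0.204 to 1.06 footprints per FLuc codon, so a single footprint was worth 0.172% to 0.893% of a library's FLuc footprints, and a count of 0 allowed a share of up to 0.515% to 2.68%. Nonoptimal replicate 3 was the shallowest. RNA-seq was deeper, with 2155 to 17359 alignments over FLuc. All FLuc alignments in the 12 libraries came from reads that aligned to 1 plasmid map, so reads shared with the Renilla plasmid did not enter.

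Relative to the co-transfected Renilla, the optimal FLuc codons carried more footprints and more RNA than the nonoptimal ones. Without that scale they did not carry more footprints, at 0.566 ± 0.10 per codon against 0.647 ± 0.430 on the nonoptimal FLuc (SD of 3 libraries each). Footprints per FLuc codon, divided by footprints per Renilla codon of the same library, were 0.0702, 0.0859 and 0.0920 in the nonoptimal and 0.487, 0.346 and 0.338 in the optimal libraries. Every optimal value lay above every nonoptimal value, with means apart by 2.23 on the log2 scale (SE 0.21). Mean RNA depth over FLuc, relative to that over Renilla, averaged 0.237 ± 0.0147 in the 3 nonoptimal libraries and 0.898 ± 0.0750 in the 3 optimal libraries (SD), 1.92 apart on the log2 scale (SE 0.085), again without overlap. The ratio of the footprint to the RNA level, the translational efficiency, was 0.298, 0.387 and 0.366 in the nonoptimal and 0.495, 0.403 and 0.397 in the optimal libraries. Here the groups lay close together, with a log2 difference of 0.30 (SE 0.15). For each of these 3 comparisons p was 0.1 by an exact two-sided permutation test, which cannot go lower with 3 against 3 values, and the adjusted p over the 11 comparisons of single values was 0.138. The efficiency difference was 0.19 without nonoptimal replicate 1 and 0.20 without optimal replicate 1. The groups overlapped in efficiency with 28 and 29 nt footprints alone (0.32, exact permutation p = 0.2), without 20 codons at each end (0.21, exact permutation p = 0.4) and without the 27 codons fullest over both reporters (0.12, exact permutation p = 0.6). The Renilla scale itself moved with the groups for footprints. Renilla received 8.07 ± 5.25 footprints per codon beside the nonoptimal and 1.48 ± 0.319 beside the optimal reporter (SD of 3 libraries each). These counts are not corrected for library size. Renilla RNA depth was 1259 ± 553 and 1367 ± 352 (SD of 3 libraries each), and the groups overlapped (exact permutation p = 0.8). Scaled to all coding regions instead of Renilla alone, the differences were 1.34 for footprints, 0.75 for RNA and 0.59 for the efficiency, each without overlap.

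Within the same mRNA, FLuc was also set against its neighbours SM and GFP. Footprint density on FLuc divided by that on SM and GFP was 0.880, 0.819 and 0.694 in the nonoptimal and 1.0, 0.855 and 0.818 in the optimal libraries, and the groups overlapped (log2 difference 0.16, SE 0.13; exact two-sided permutation p = 0.5). The same ratio of RNA depth was 0.778 ± 0.0410 and 0.879 ± 0.0308 (SD of 3 libraries each), without overlap (log2 difference 0.18, SE 0.053; exact permutation p = 0.1, adjusted p = 0.138). Divided by each other, the 2 ratios gave 1.02 ± 0.0702 and 1.01 ± 0.0906 (SD of 3 libraries each), which differed by -0.014 on the log2 scale (SE 0.093; exact permutation p = 1). With all sense alignments in place of 27 to 30 nt, the undivided footprint ratio differed by 0.34 and the divided ratio by 0.16, and in both the groups no longer overlapped (exact permutation p = 0.1). Without the 27 fullest codons the divided ratio differed by -0.20, with overlap (exact permutation p = 0.4).

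Where the footprints began along FLuc differed between the reporters. In both, a small set of codons held a large part of the footprints: the fullest 27 codons of each reporter, 5% of FLuc, held 41.6% of the mean footprint share in the nonoptimal and 43.9% in the optimal reporter. Only 4 codons belonged to both sets, 14.8% of each, namely codons 1, 495, 516 and 518. In SM, the fullest 16 codons of the 2 reporters shared 12, or 75% of each set, and in GFP the fullest 12 shared 8, or 66.7% of each. These sets were chosen by their footprints and are given as a description.

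**Figure D1:**
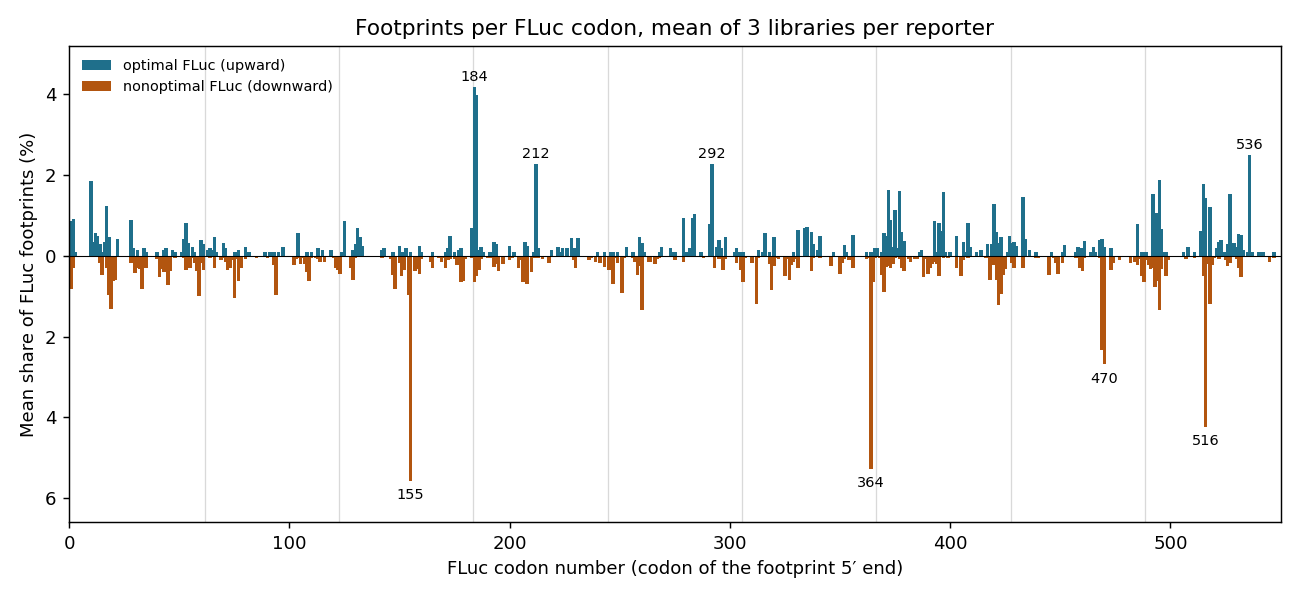
Mean share of FLuc footprints (percent, 3 libraries per reporter) by the codon of the 5′ end, with the optimal reporter drawn upward and the nonoptimal reporter downward; grey lines bound the windows of 61 codons. The tallest bars stand at codons 155, 364 and 516 in the nonoptimal and at codons 184 and 185 in the optimal reporter, and few bars face each other.

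Codon 155, at positions 4866 to 4868 of the nonoptimal map, was the fullest of the nonoptimal reporter. It received 27, 29 and 5 footprints in the nonoptimal libraries and 1, 0 and 0 in the optimal libraries. These were 7.28% (95% Wilson interval 5.05% to 10.4%), 4.97% (3.49% to 7.05%) and 4.46% (1.92% to 10.0%) of the FLuc footprints of each nonoptimal library. The fullest codons and largest differences named here and below were picked by their shares, the differences also for lack of overlap. Lack of overlap at these codons is therefore a description. At codon 155 the groups did not overlap, and the RNA depth at this codon was 0.945 and 1.09 times the FLuc mean in the nonoptimal and the optimal reporter. Each of its footprints in a library carried a different molecular identifier in its read name, 27 of 27, 29 of 29 and 5 of 5.

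Codon 364 came next in the nonoptimal reporter, with 8, 38 and 8 footprints (2.16%, 6.52% and 7.14%), against 1, 0 and 0 in the optimal libraries. Replicate 1 was low here, and even so lay above all optimal libraries. Codon 516 received 22, 29 and 2 nonoptimal footprints (5.93%, 4.97% and 1.79%), but also 2, 6 and 5 optimal ones (0.597%, 1.71% and 2.02%). At this codon the reporters overlapped, because nonoptimal replicate 3 fell among the optimal values. The adjoining codons 469 and 470 together made another site, with 17, 9 and 1 footprints on codon 469 and 13, 11 and 3 on codon 470 in the nonoptimal libraries. In the optimal libraries the same pair of codons held 1, 2 and 1 and 0, 1 and 1 footprints.

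The other nonoptimal codons among the 10 fullest each held 11 to 17 footprints over the 3 libraries. Codon 19 (6, 3 and 2 footprints) and codon 312 (3, 11 and 1) had none in any optimal library. Codons 260 and 422 had 17 and 11 nonoptimal footprints in all against 3 each in the optimal libraries. Codon 495 was the exception, being the only codon among the 10 fullest of both reporters: it held 2, 10 and 2 nonoptimal and 3, 8 and 6 optimal footprints, and its shares overlapped. A further 3 codons with 1 optimal footprint or none were among the 10 largest differences: codon 59 (4, 6 and 1 against 0, 0 and 0), codon 75 (3, 3 and 2 against 1, 0 and 0) and codon 154 (1, 5 and 2 against 0, 0 and 0), which precedes codon 155.

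In the optimal reporter the fullest site was the pair of codons 184 and 185, at positions 4187 to 4192 of the optimal map. Codon 184 received 20, 9 and 10 footprints in the optimal libraries, which were 5.97% (95% Wilson interval 3.90% to 9.04%), 2.57% (1.36% to 4.81%) and 4.03% (2.20% to 7.26%), against 4, 5 and 0 in the nonoptimal libraries. Codon 185 received 14, 13 and 10 (4.18%, 3.71% and 4.03%), against 1, 2 and 1. All optimal shares exceeded all nonoptimal shares at both codons, which were picked by these shares. RNA depth at both was 1.07 times the FLuc mean in the optimal reporter.

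Several sites of the optimal reporter were empty in the nonoptimal one. Codon 536 held 6, 13 and 5 footprints, codon 292 held 8, 7 and 6, and codon 10 held 8, 4 and 5, while all 3 codons had 0 in each nonoptimal library. Pooled, 0 of 1066 nonoptimal footprints allows a share of up to 0.281%, and the mean optimal shares were 2.51%, 2.27% and 1.85%. In the single nonoptimal libraries a count of 0 allows up to 0.809%, 0.515% and 2.68%, the last above all of these means. The codons were picked by their shares, so these values are a description. Codon 212 had 2, 12 and 7 optimal footprints against 0, 1 and 0, so that optimal replicate 1 was well below the other two. The remaining codons of the 10 fullest, 372, 377 and 515, held 16, 15 and 16 optimal footprints against 4, 1 and 6 nonoptimal ones. At codon 515 the shares overlapped. Codon 397 (6, 6 and 3 against 0, 1 and 0) and codon 527 (3, 3 and 7 against 0, 3 and 0) complete the 10 largest differences in favour of the optimal reporter. At the ends of FLuc, codon 1 held 9 footprints in each reporter and codon 549 held 0 in all 6 libraries.

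**Figure D2:**
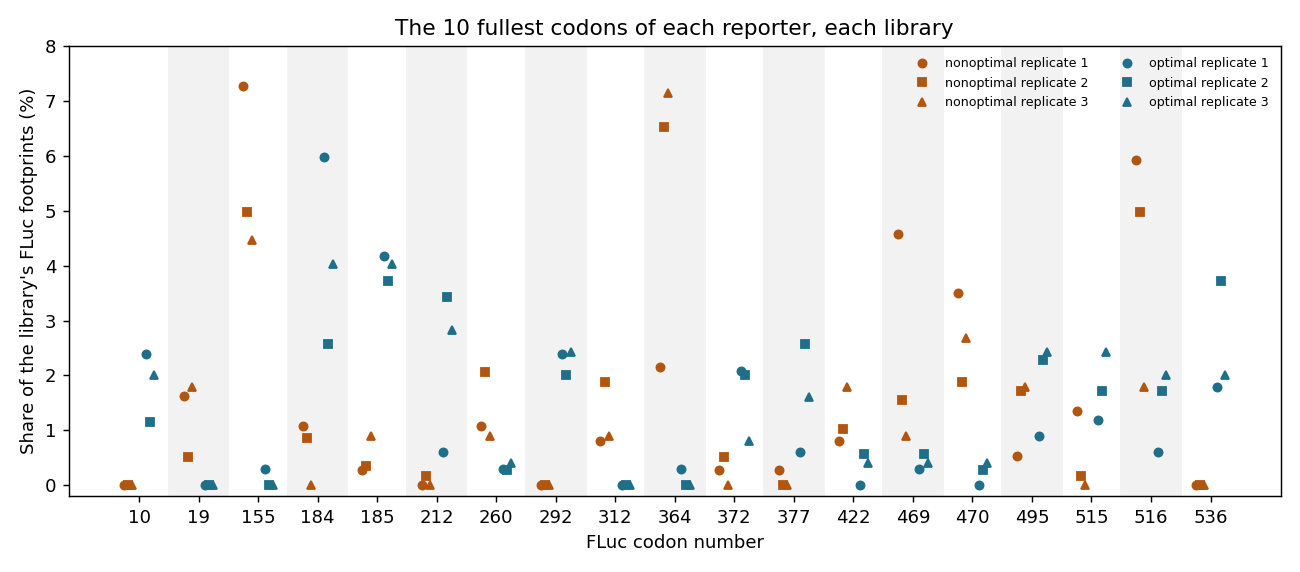
Share of each library's FLuc footprints (percent) at the codons that are among the 10 fullest of either reporter; marker shape gives the replicate and colour the reporter. Codons 155, 364 and 470 are high in the nonoptimal libraries and codons 184, 185, 292 and 536 in the optimal libraries, while the shares at codons 495, 515 and 516 overlap.

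The whole codon profile differed between the reporters as well. Across the 549 FLuc codons, footprint counts of 2 libraries of the same reporter had a Pearson r of 0.53 to 0.75 (median 0.68 over 6 pairs). Between libraries of different reporters r was 0.050 to 0.17 (median 0.11 over 9 pairs), so no pair from different reporters reached the lowest pair within a reporter. In the segments that bear the same name in both reporters, pairs from different reporters were about as alike as pairs within one. Over the SM codons r was 0.40 to 0.77 within and 0.39 to 0.78 between reporters, and over GFP 0.43 to 0.74 and 0.36 to 0.74. Renilla, read beside both reporters, gave 0.60 to 0.95 and 0.43 to 0.87. Codons share a library and its depth and are not independent replicates, so these values carry no p. Without the 27 codons fullest over both reporters, the FLuc values were 0.26 to 0.53 within and -0.00081 to 0.10 between reporters.

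**Figure D3:**
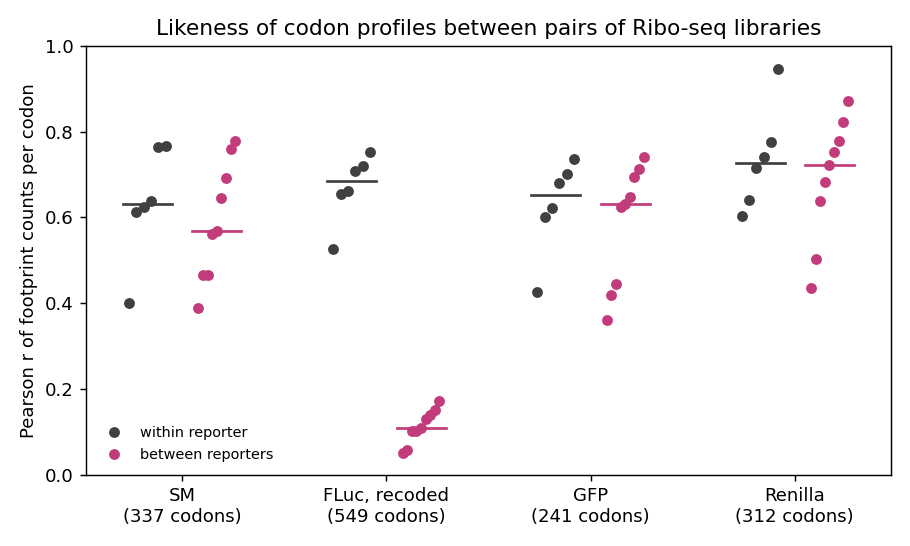
Pearson r of footprint counts per codon for each pair of Ribo-seq libraries, by segment; a point is a pair of libraries, black within a reporter (6 pairs) and pink between reporters (9 pairs), and bars are medians. Only over FLuc do the pink points, at 0.050 to 0.17, lie apart from the black points, at 0.53 to 0.75.

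RNA-seq positions differed between the reporters too. The starts of RNA fragments per FLuc codon had an r of 0.63 to 0.93 within a reporter and 0.24 to 0.30 between reporters, against 0.72 to 0.86 between reporters over SM. RNA depth per FLuc codon gave 0.47 to 0.97 within and 0.076 to 0.46 between reporters. The part that the sequence preference of ligation or priming has in the footprint profile was not tested. RNA depth itself was nearly level along FLuc: the highest codon exceeded the lowest 1.64-fold ± 0.136 in the nonoptimal and 2.09-fold ± 0.0751 in the optimal libraries (SD of 3 each).

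Counted codon by codon, the 3 shares of one reporter lay wholly above those of the other at 60 of 549 FLuc codons (10.9%). Over all 1127 codons of the reading frame the figure was 7.19%, and over the 578 codons of SM and GFP it was 3.63% (21 codons). The optimal libraries were higher at 28 FLuc codons (5.10%, against 3.55% of the reading frame) and the nonoptimal libraries at 32 (5.83%, against 3.64%). SM was read more deeply per codon than FLuc, at 0.946 ± 0.585 and 0.773 ± 0.145 footprints per codon (SD, n = 3) in the nonoptimal and the optimal libraries, against 0.647 ± 0.430 and 0.566 ± 0.10 (SD, n = 3) on FLuc, and GFP less deeply, at 0.563 ± 0.384 and 0.443 ± 0.0432 (SD, n = 3). The share without overlap was 4.15% of SM and 2.90% of GFP codons. With footprints of 28 and 29 nt alone the counts were 45 on FLuc and 17 on SM and GFP. Without nonoptimal replicate 3, which leaves 2 against 3 libraries and a looser criterion, 108 FLuc codons qualified. SM and GFP codons were not counted under this looser criterion, so the 108 cannot be set against a background.

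Recurrent codons gave a similar picture. A footprint was present in all 3 nonoptimal libraries at 47 FLuc codons and in all 3 optimal libraries at 53. Only 11 codons were in both lists, 23.4% of the former and 20.8% of the latter. Of the 47, 20 had no footprint in any optimal library, and of the 53, 13 had none in any nonoptimal library. In SM, 22 codons were in both lists, 62.9% of 35 and 43.1% of 51, and 1 codon of each list was empty in the other reporter. In GFP, 8 codons were in both, 50% of 16 in each reporter, and again 1 codon of each list was empty in the other. Over the whole reading frame 41 codons were in both lists, 41.8% of 98 and 34.2% of 120. There 22 nonoptimal and 15 optimal codons of the lists were empty in the other reporter. The depth leaves many codons unread: 168 FLuc codons had no footprint in any of the 6 libraries.

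The longest stretches without footprints were picked by their counts in these same data and are given as a description. Over the 3 libraries of each reporter, 269 of 549 FLuc codons were empty in the nonoptimal and 295 in the optimal reporter. Counts for an even spread serve only as a scale, since the footprints were not evenly spread. The longest in the nonoptimal reporter was codons 533 to 544, where an even spread of its 1066 footprints would have put 23.3, and the optimal libraries held 30 there, including codon 536. Codons 3 to 13 were likewise empty in the nonoptimal libraries (21.4 with an even spread) and held 31 optimal footprints, codon 10 among them. RNA depth in these stretches was 1.0 ± 0.0247 and 1.15 ± 0.0973 times the FLuc mean (SD, n = 3). In the optimal reporter the longest was codons 474 to 484, with 9 nonoptimal footprints and an optimal RNA depth of 1.24 ± 0.0316 times the mean (SD, n = 3). Codons 134 to 141 were empty in both reporters, at RNA depths of 1.04 ± 0.0515 (SD, n = 3) times the mean in the optimal reporter, and lay within an empty stretch from 131 to 141 of the nonoptimal reporter at 0.833 ± 0.0719 (SD, n = 3).

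Footprints were spread unevenly over the codons of both reporters. Unevenness was measured as the chance that 2 footprints of a library begin on the same codon, relative to an even spread, which does not depend on depth. It was 8.29, 7.29 and 4.5 in the nonoptimal and 5.88, 5.47 and 5.88 in the optimal libraries, and the groups overlapped (log2 difference -0.18, SE 0.27; exact two-sided permutation p = 0.5). The same measure of RNA fragment starts on FLuc was 1.81 ± 0.0693 and 2.0 ± 0.0471 (SD, n = 3), far below that of the footprints in every library. The crowded codons thus lay at different places, while no difference in the degree of crowding was detectable with 3 against 3 libraries. Without the 27 fullest codons, the log2 difference was 0.58 with the optimal libraries higher, and with all sense alignments it was 0.75; in both cases the groups no longer overlapped (exact permutation p = 0.1). The opposite direction, also without overlap, was found without nonoptimal replicate 3, at -0.44 (exact permutation p = 0.1), and without nonoptimal replicate 1 the difference was 0.0025.

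Over longer stretches, FLuc was divided into 9 windows of 61 codons. The footprint shares of the 2 reporters did not overlap in 7 of 9 FLuc windows, where 47.1% of the 17 windows of the reading frame did so, and in 1 of 8 windows of SM and GFP. The optimal libraries were higher in windows 4, 5 and 7, and the nonoptimal libraries in windows 2, 3, 6 and 8. Each of the 7 had an exact two-sided permutation p of 0.1 and an adjusted p of 0.212 over the 17 windows.

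Window 3, codons 123 to 183, showed the largest difference. It held 13.7%, 13.0% and 17.0% of FLuc footprints in the nonoptimal and 6.87%, 6.57% and 5.24% in the optimal libraries, 2.34-fold more in the nonoptimal reporter (log2 difference -1.23, SE 0.17). Window 6, codons 306 to 366, held 11.6%, 15.1% and 14.3% against 8.06%, 6.0% and 5.65% (log2 difference -1.06, SE 0.20). The opposite held in window 4, codons 184 to 244, with 7.01%, 7.20% and 8.04% in the nonoptimal and 16.4%, 14.0% and 14.9% in the optimal libraries, 2.04-fold more in the optimal reporter (log2 difference 1.03, SE 0.090). Window 7, codons 367 to 427, held 10.8%, 10.5% and 14.3% against 16.7%, 18.9% and 19.8% (log2 difference 0.65, SE 0.16). Differences in windows 2, 5 and 8 were -0.93 (SE 0.19), 0.52 (SE 0.31) and -0.56 (SE 0.24) on the log2 scale. In window 5 optimal replicate 1 was high, at 14.0% against 8.86% and 8.47%, and the difference was 0.29 without it and 0.32 without nonoptimal replicate 1. The groups overlapped in window 5 with all sense alignments (0.23) and with 28 and 29 nt footprints (0.39). Window 8 was at -0.35 without nonoptimal replicate 1, and overlapped with 28 and 29 nt footprints (-0.19), with footprint depth in place of 5′ ends (-0.50) and after a shift of 15 nt. Windows 1 and 9, the ends of FLuc, overlapped between the groups, at -0.11 (SE 0.21) and 0.57 (SE 0.32).

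RNA depth varied far less between the windows. RNA shares did not overlap in 4 of 9 FLuc windows, against 35.3% of the 17 windows of the reading frame, but no FLuc window differed by more than 1.21-fold in depth. Counted by RNA fragment starts, the windows differed more, from -0.39 (window 1) to 0.26 (window 6) on the log2 scale. Window 2 was the one with the largest difference in RNA depth, 10.9% ± 0.305 against 9.02% ± 0.423 (SD of 3 libraries each) with the nonoptimal first. After division of the footprint share by the RNA share, 7 of 9 FLuc windows did not overlap, where 41.2% of all 17 did so. The log2 differences of windows 3 and 4 were then -1.38 (SE 0.21) and 1.02 (SE 0.11).

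Single codons weighed heavily in these windows. Codon 155 lies in window 3, codon 364 in window 6, and codons 184 and 185 open window 4. Without the 27 codons fullest over both reporters, 3 of 9 windows did not overlap, namely windows 2, 5 and 7. Window 4 turned to -0.24 and window 8 to 0.11, while windows 3 and 6 shrank to -0.32 and -0.19, all with overlap. Moving each footprint 15 nt downstream, towards the codon being decoded, carried codon 364 over the border into window 7 and left 4 windows without overlap. Window 2, at -1.19 to -0.74 on the log2 scale, was without overlap under each of the 11 alternatives that bear on footprint shares. These include leaving out each replicate, which could not bring overlap about, so only the other alternatives are a check.

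**Figure D4:**
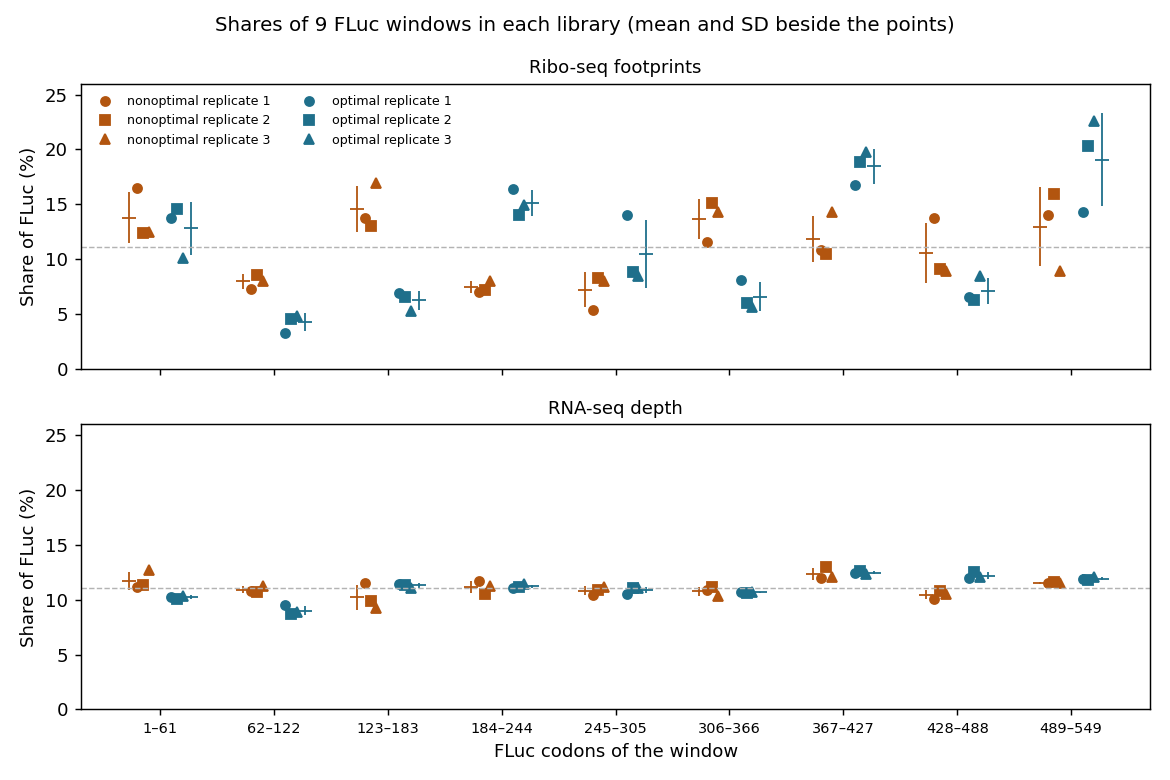
Share of FLuc footprints (upper panel) and of FLuc RNA depth (lower panel), in percent, in 9 windows of 61 codons; points are libraries, horizontal ticks with bars are mean ± SD of 3, and the dashed line is an even spread. Footprint shares lie apart in windows 2 to 8, and RNA shares stay close to the dashed line throughout.

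The optimal FLuc carried more footprints near its end than near its start, and the nonoptimal FLuc about as many. The 183 codons at the end held 1.03, 1.05 and 0.857 times the footprints of the 183 codons at the start in the nonoptimal libraries. In the optimal libraries the ratio was 1.58, 1.77 and 2.52, all above the nonoptimal values, by 0.98 on the log2 scale on average (SE 0.22; exact two-sided permutation p = 0.1, adjusted p = 0.138). The counts behind it were 139 at the start and 143 at the end in nonoptimal replicate 1, 198 and 207 in replicate 2 and 42 and 36 in replicate 3. For the optimal replicates they were 80 and 126, 90 and 159, and 50 and 126. The same ratio of RNA depth was 1.05 ± 0.0546 and 1.2 ± 0.0330 (SD of 3 libraries each), 0.20 apart on the log2 scale (SE 0.049; exact permutation p = 0.1). Counted by RNA fragment starts instead of depth, the reporters differed by 0.042 in RNA, with overlap (exact permutation p = 0.3). After division by RNA depth, the footprint ratio was 0.935 ± 0.0948 and 1.63 ± 0.400 (SD of 3 libraries each), 0.78 apart on the log2 scale (SE 0.21; exact permutation p = 0.1, adjusted p = 0.138). When any single replicate was left out, the log2 difference of this gradient was 0.78 to 1.1 before and 0.59 to 0.90 after division by RNA. Its direction and the lack of overlap could not change, because the full groups did not overlap.

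At the borders of FLuc, the footprints of the first 61 FLuc codons were set against those of the last 61 codons of SM. The ratio was 1.03, 0.563 and 0.636 in the nonoptimal and 0.885, 0.739 and 0.481 in the optimal libraries, with full overlap of the groups. The first 61 codons of GFP held 0.615, 0.366 and 0.70 times the footprints of the last 61 codons of FLuc in the nonoptimal and 0.417, 0.338 and 0.518 times in the optimal libraries. GFP thus held fewer footprints than the adjoining FLuc codons in each of the 6 libraries, while RNA depth was 1.09 to 1.38 times higher in GFP.

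The last property was the reading frame. A ribosome moves by whole codons, so footprints of a given length begin mostly at the same position of a codon, here the second. On the nonoptimal FLuc this main frame held 61.5%, 71.7% and 68.8% of the footprints, and on the optimal FLuc 71.9%, 78.3% and 81.9%. The optimal libraries lay higher by 10.1 points (SE 4.2; exact two-sided permutation p = 0.1, adjusted p = 0.138), although nonoptimal replicate 2 and optimal replicate 1 were nearly equal. Footprints at the first position of the codon were more frequent in the nonoptimal libraries, at 23.5% ± 5.43 against 14.5% ± 2.46 in the optimal libraries (SD of 3 each). With 28 and 29 nt footprints alone, the difference in the main frame was 9.65 points and the groups overlapped (exact permutation p = 0.2). At 28 nt the main frame held 55.6%, 60.0% and 42.9% of nonoptimal and 69.3%, 74.7% and 83.0% of optimal footprints. At 29 nt it held 86.2%, 88.5% and 84.9% against 84.0%, 95.3% and 84.0%, with overlap. On SM the main frame held 74.8% ± 5.27 and 76.7% ± 1.01 (SD, n = 3), and the groups overlapped (exact permutation p = 0.9). Set against SM of the same library, FLuc differed by -7.25, -6.19 and -9.03 points in the nonoptimal libraries and by -4.51, 0.438 and 5.96 points in the optimal ones, again without overlap (exact permutation p = 0.1). Set against GFP the reporters overlapped, with a difference of 3.01 points (SE 6.26; exact permutation p = 0.5), and GFP's own main frame held 73.7% ± 6.89 and 80.7% ± 3.93 (SD, n = 3). Against Renilla the difference was 13.0 points (SE 5.12), without overlap (exact permutation p = 0.1). Renilla's own main frame was lower beside the optimal reporter, at 78.4% ± 2.50 against 81.4% ± 0.205 (SD, n = 3). Because the groups overlapped against GFP, the frame difference is not shown to be particular to FLuc.

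A few codons held many of the first-position footprints. Codon 155 began 46 of its 61 nonoptimal footprints at the first position and codon 470 began 19 of 27 there, together 65 of the 243 such footprints on the nonoptimal FLuc. With these codons left out, the main frame held 67.7%, 74.4% and 72.1% of nonoptimal and 71.9%, 78.5% and 82.2% of optimal footprints, a difference of 6.12 points, and the groups overlapped (exact permutation p = 0.3). Both codons were picked after seeing the data, for their first-position footprints in the nonoptimal reporter alone. Leaving them out therefore had to raise the nonoptimal share, and the smaller difference is a description only. Codons 364 and 516, by contrast, began 51 of 54 and 52 of 53 footprints in the main frame. Footprint length did not differ detectably on FLuc, with a mean of 28.3 nt ± 0.255 and 28.3 nt ± 0.15 (SD, n = 3; exact permutation p = 0.8).

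**Figure D5:**
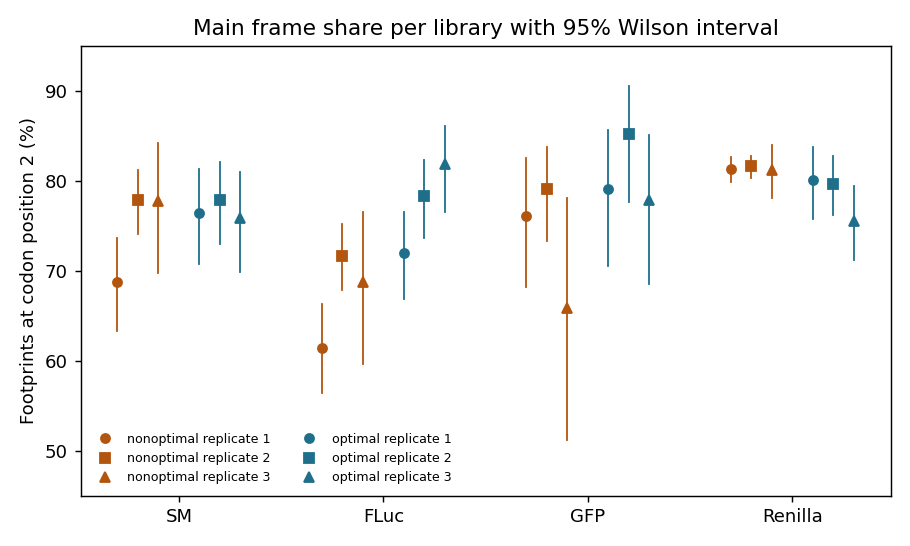
Percentage of footprints whose 5′ end lies on the second position of a codon, by segment, for each Ribo-seq library; bars are 95% Wilson intervals, which cover counting error only, and the axis starts at 45%. On FLuc the nonoptimal libraries sit at 61.5% to 71.7% and the optimal libraries at 71.9% to 81.9%, while on SM the 2 groups overlap.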

How the data were processed

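For each library the authors deposited alignments to the plasmid maps, with start, end and strand. These deposited values are positions, without a unit of expression. The submitters' processing notes name UMI-tools, Bowtie 1.2.2, STAR 2.6.0a, SAMtools 1.12, Salmon 1.6.0 and bedtools without saying which made these files; trimming and filters are not given in the sources used here. Libraries held 1975 to 11028 (Ribo-seq) and 26422 to 90999 (RNA-seq) alignments.

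Lines with equal coordinates, read name and strand were merged. Ribo-seq footprints were sense alignments of 27 to 30 nt, counted at their 5′ end. RNA was sense depth per nucleotide from both mates of 151 nt, with mate 1 taken as antisense to the transcript. Shares were taken within FLuc, levels relative to Renilla. Fold changes were tested on the log2 scale without a pseudocount. GFP was read as 241 codons in both reporters, since the list gives it 1 nt more in the optimal one.

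Groups came from the sample titles. Values were compared by exact two-sided permutation tests (3 against 3, smallest p 0.1), with Benjamini-Hochberg adjustment over 11 single values and over 17 windows. Single codons carry no test. Named codons were the 10 fullest of each reporter with a footprint in all 3 libraries, the 10 largest differences without overlap in each direction, and the ends of FLuc. Intervals are 95% Wilson intervals and, like the limit of 3 counts for a count of 0, cover counting error only. The codons, windows and tests were chosen with earlier results of these data known. Alternatives were other footprint lengths, a shift of 15 nt, depth in place of 5′ ends, RNA fragment starts, reads on 1 map, another scale, left-out codons, left-out replicates and a replicate block. Scripts used Python 3.11.15, NumPy 2.4.6 and SciPy 1.17.1 and were tested on simulated data.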

Additional observations from a re-analysis of the deposited data

Results flagged for a closer look

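Outside the footprints described above, 586 sense Ribo-seq alignments of other lengths began on FLuc in the 6 libraries, although fragments of 27 to 30 nt had been isolated on a gel. They numbered 103, 88 and 14 in the nonoptimal and 53, 192 and 136 in the optimal libraries.

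Fragments of 20 to 22 nt made up 205 of these in the optimal libraries and 10 in the nonoptimal libraries. The optimal replicates held 29, 98 and 78, and the nonoptimal replicates 2, 7 and 1. Among fragments of 20 to 22 and 27 to 30 nt, the short ones were 17.9% ± 8.68 (SD, n = 3) on the optimal and 0.869% ± 0.325 (SD, n = 3) on the nonoptimal FLuc, a length class chosen after its values were seen. Elsewhere their mean share was also higher in the optimal libraries, with 6.97% ± 3.99 against 2.29% ± 0.684 on SM, 4.76% ± 3.34 against 0.392% ± 0.372 on GFP and 5.51% ± 3.90 against 1.02% ± 0.409 on Renilla (SD, n = 3). The groups overlapped on SM and Renilla, where optimal replicate 1 held 2.81% and 1.01%, within the range of the nonoptimal libraries, and the difference lay in optimal replicates 2 and 3. On the optimal FLuc they were crowded: codon 184, the fullest codon of the longer footprints, held 79 of the 205 (15, 38 and 26), codon 372 held 50 (5, 23 and 22) and codon 433 held 20 (2, 11 and 7), each with a different identifier within its library. Of the 205, 179 began on the second position of a codon and 158 were 21 nt long. What made them was not tested.

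On the strand opposite to the transcript, 8 Ribo-seq alignments of 27 to 30 nt began on FLuc in all 6 libraries, and 613 RNA-seq alignments lay over FLuc, 0.916% to 1.67% of those in a library.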

How the results depend on the processing

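The 15 results were recomputed under alternatives, giving 175 values beside the replicate block, of which 160 stayed within the spread between replicates or, for counts, within 1.5 times the value reported, and 15 moved further. Of 129 recomputed differences, 117 had the direction of the value reported. For part of these values the outcome was fixed in advance. Leaving out 1 of 3 replicates cannot move a difference beyond the spread between replicates, nor reverse one whose groups do not overlap. Reads on 1 map were all the reads on FLuc, SM and GFP, so that alternative left the values nearly unchanged. These counts are therefore no measure of stability. With all sense lengths, FLuc footprints relative to SM and GFP differed by 0.34, by 0.16 after division by RNA, and codon concentration by 0.75. Without the 5% fullest codons these were -0.023, -0.20 and 0.58, and 3 FLuc windows were without overlap for footprints and 3 after division by RNA (these window counts were added after seeing the data). A 15 nt shift left 4 windows, and 28 and 29 nt footprints 4 after division by RNA. RNA fragment starts changed the end-to-start RNA difference to 0.042. Scaling to all coding regions gave 1.34, 0.75 and 0.59 for the footprint level, the RNA level and the efficiency. Leaving out 1 replicate, a looser criterion, gave 72 to 108 FLuc codons without overlap, with 108 without nonoptimal replicate 3. SM and GFP codons were not counted in this way.

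Whether the replicate numbers pair libraries of the 2 reporters could not be settled. Over 8 windows of SM and GFP, deviations of same-numbered footprint libraries correlated at -0.14, 0.015 and 0.32. Footprint libraries of different numbers correlated at -0.80 to 0.79. With so few windows and 3 libraries per reporter, these values can neither show nor exclude pairing. With the replicate block the differences stayed as they were, such as 2.23 for the footprint level, 0.30 for the efficiency and 0.98 for the end-to-start ratio, and the exact sign-flip permutation test could not go below p = 0.25.

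The limits are depth and number. At 0.204 to 1.06 footprints per codon, a codon with 0 footprints is not shown to be free of ribosomes, and the exact permutation test of 3 against 3 libraries cannot pass a threshold of 0.05. The end-to-start footprint difference was 0.88 without the fullest codons.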
